A study of Mus musculus with 6 samples.

Results

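Sirpa, Cd47, Cd24a and Qpctl encode the parts of the signals by which a cell tells a macrophage not to engulf it, and they were followed in 4T1 mouse mammary carcinoma cells. The 4 genes were taken by symbol from the 31017 genes of the deposited table, and all 4 were among the 12076 genes that passed the filter on low counts. Sirpa was selected on its measured log2 fold change, a large rise in ETV4 KO in these libraries, and the others because they belong to the same signals. The differences of the 4 genes are therefore given as a description, with their errors and without a test.

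CD47 is a membrane protein of nearly all cells. It binds SIRPA (signal regulatory protein alpha), a receptor best known on macrophages, dendritic cells and neurons, whose cytoplasmic tail then recruits the phosphatases SHP-1 and SHP-2 and restrains engulfment. CD24 is a small, heavily glycosylated protein on a glycosylphosphatidylinositol (GPI) anchor. It is read by sialic acid receptors of the Siglec family on macrophages, and P-selectin binds it as well. QPCTL is a glutaminyl cyclase of the Golgi that turns the N-terminal glutamine of CD47 into pyroglutamate, the form that SIRPA binds well. In tumours CD47 and CD24 are studied on the cancer cell and SIRPA mostly on the phagocyte.

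Poly(A) RNA was sequenced from 6 samples in 2 groups. The 3 ETV4 KO samples were 4T1 cells nucleofected with Cas9 and guides against ETV4, which encodes an ETS transcription factor, and the 3 control samples were 4T1 cells nucleofected with Cas9 and control guides. Both groups were grown in 3D gels of collagen I, at either of a pair of concentrations that the labels do not assign, and cells were freed from the gels with collagenase for RNA extraction. The question was how transcript levels in this culture differ once ETV4 is targeted. All ETV4 KO libraries carry the same code in their names. The labels do not say whether that code is a single clone or whether samples of a group were separate cultures, so errors and p-values cover only the variation among these libraries, part of which may be technical.

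The libraries held 24356286 to 29042569 counts in ETV4 KO and 22355015 to 26669985 in control. Etv4 itself (chromosome 11, 101769742 to 101785371 in mm10, minus strand) had 2503, 2217 and 2207 counts in ETV4 KO replicates 1, 2 and 3, against 3098, 3648 and 3030 counts in control replicates 1, 2 and 3. On the TMM-scaled level these were 89.8 CPM ± 2.44 in ETV4 KO and 133.9 CPM ± 0.752 in control (SD, n = 3 each), or -0.58 as a log2 fold change (SE 0.036, edgeR quasi-likelihood adjusted p = 1.03e-14). All log2 fold changes are ETV4 KO over control, and CPM are counts scaled to library sizes with TMM factors. Keratins and Epcam, which mark the epithelial origin of 4T1, were abundant in every library. The 10 epithelial markers summed to 4516 to 4712 CPM in ETV4 KO and 6112 to 6249 CPM in control. They went both ways, with 3 called higher and 6 lower in ETV4 KO (edgeR adjusted p under 0.05). Over all tested genes 35.0% rose and 36.0% fell. Epcam had a log2 fold change of -1.37 and Cldn4, which was called higher, had 0.47. In this bulk RNA, fewer cells that express a gene and less RNA of it per cell cannot be told apart.

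The sequences that these signals turn on are shown first, so that the values can be read beside them. The coding stretch of the SIRPA tail (chromosome 2, plus strand, codons 438 to 508 of 513 in the GENCODE M21 transcript) holds 4 tyrosine codons of the inhibitory type, which dock the phosphatases and are given in capitals. They were found by searching the translated tail for serine, threonine, isoleucine, valine or leucine, then any residue, tyrosine, any pair of residues, and isoleucine, leucine or valine. The coding stretch of CD47 (chromosome 16, plus strand, codons 19 to 38 of 342) starts with the glutamine codon, in capitals, that becomes the N-terminus of the mature protein and is the residue QPCTL converts.
Sirpa tail: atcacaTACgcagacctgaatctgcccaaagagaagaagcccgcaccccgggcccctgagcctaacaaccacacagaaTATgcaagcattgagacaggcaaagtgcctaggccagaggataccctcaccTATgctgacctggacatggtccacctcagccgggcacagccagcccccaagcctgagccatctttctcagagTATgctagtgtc
Cd47 start: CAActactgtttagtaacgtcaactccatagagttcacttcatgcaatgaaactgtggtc

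In ETV4 KO cells the receptor gene was about a factor of 10 higher than in control cells, while its ligand gene was at almost the same level. Sirpa (ENSMUSG00000037902, chromosome 2, 129592835 to 129632228 in mm10, plus strand) had 802, 709 and 640 counts in ETV4 KO replicates 1, 2 and 3, against 61, 65 and 64 counts in control replicates 1, 2 and 3. These were 28.0, 28.6 and 26.8 CPM in ETV4 KO and 2.63, 2.40 and 2.82 CPM in control. Every ETV4 KO library lay far above every control library, and the libraries of a group were close together. The means were 27.8 CPM ± 0.951 in ETV4 KO and 2.62 CPM ± 0.208 in control (SD, n = 3 each), which is 3.42 as a log2 fold change (SE 0.091) or 10.7-fold. By the size of its rise Sirpa ranked 21 among the 12076 tested genes, between Klk10 at 3.42 and Fgfbp1 at 3.41. This difference is what the gene was chosen for.

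**Figure D1:**
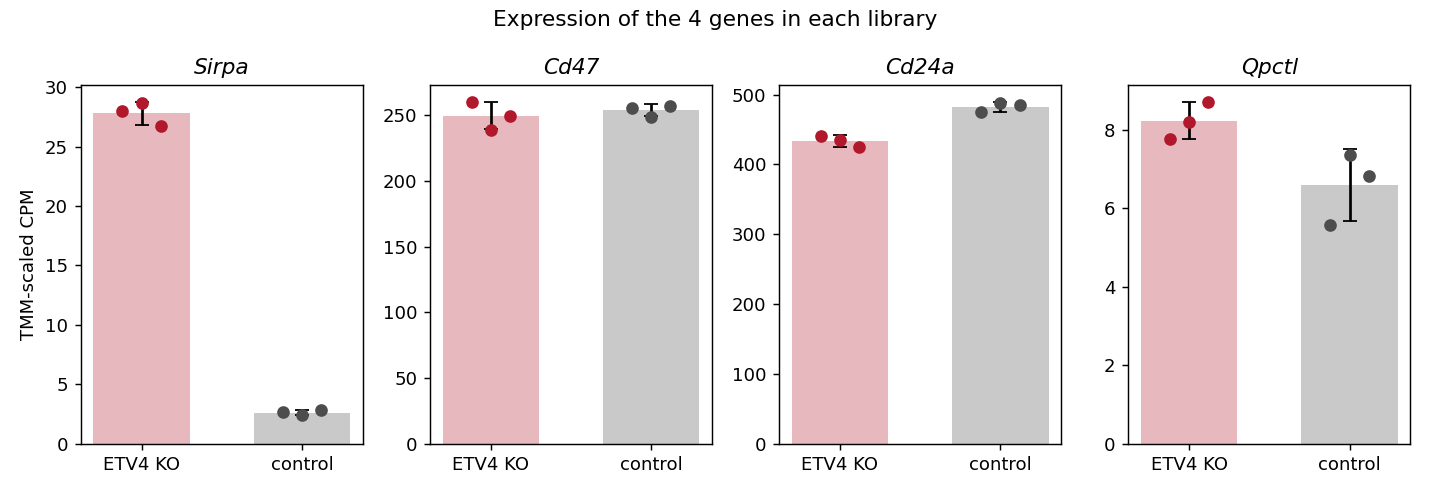
TMM-scaled CPM of Sirpa, Cd47, Cd24a and Qpctl in ETV4 KO libraries (red) and control libraries (grey). Points are the 3 libraries of a group, bars are means and error bars are SD. Sirpa averaged 27.8 CPM in ETV4 KO and 2.62 CPM in control, whereas the Cd47 values of the groups overlap.

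Cd47 (ENSMUSG00000055447, chromosome 16, 49800533 to 49915010 in mm10, plus strand) had 260.0, 239.1 and 249.7 CPM in ETV4 KO replicates 1, 2 and 3, and 255.2, 248.5 and 257.2 CPM in control replicates 1, 2 and 3. The values of the groups overlapped, and the ETV4 KO libraries held both the highest and the lowest of them. The means were 249.6 CPM ± 10.5 in ETV4 KO and 253.7 CPM ± 4.53 in control (SD, n = 3 each). The log2 fold change was -0.022 (SE 0.034), smaller than its error, at a depth of 5846 to 7443 counts per library. The sign turned without ETV4 KO replicate 2, to 0.0094.

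Cd24a (ENSMUSG00000047139, chromosome 10, 43578284 to 43584265 in mm10, plus strand) was slightly lower in ETV4 KO. It had 441.2, 434.6 and 424.8 CPM in ETV4 KO replicates 1, 2 and 3, and 474.9, 488.0 and 484.8 CPM in control replicates 1, 2 and 3. The groups did not overlap, and the gap between them was larger than the spread within either. The means were 433.5 CPM ± 8.23 in ETV4 KO and 482.5 CPM ± 6.84 in control (SD, n = 3 each), which is -0.15 as a log2 fold change (SE 0.031) or 0.898-fold.

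Qpctl (ENSMUSG00000030407, chromosome 7, 19139702 to 19149291 in mm10, minus strand) was the least abundant of the 4 genes in ETV4 KO. It had 222, 203 and 208 counts in ETV4 KO replicates 1, 2 and 3, against 129, 199 and 155 counts in control replicates 1, 2 and 3. On the scaled level these were 7.76, 8.20 and 8.70 CPM in ETV4 KO and 5.56, 7.35 and 6.82 CPM in control. The groups did not overlap, but the lowest ETV4 KO value and the highest control value were near each other, and control replicate 1 lay lowest. The means were 8.22 CPM ± 0.473 in ETV4 KO and 6.58 CPM ± 0.918 in control (SD, n = 3 each), or 0.31 as a log2 fold change (SE 0.11). Without control replicate 1 it was 0.21 and without control replicate 2 it was 0.41, so that 1 control library moved it by over 1.5 times.

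Of the 4 genes, Sirpa, Cd24a and Qpctl had groups that did not overlap, in a table where this held for 72.7% of the tested genes. Nothing is read from that count, since the genes were chosen with these libraries in view. Over all tested genes the median log2 fold change was -0.0038 and the median of its absolute size 0.29. The size of the change was far above that median for Sirpa, slightly above it for Qpctl and below it for Cd24a and Cd47. Qpctl, at 0.31, fell below 0.29 in some alternatives, such as 0.21 without control replicate 1.

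Per length, the order of the levels was Cd24a, Cd47, Sirpa and Qpctl in ETV4 KO, and Cd24a, Cd47, Qpctl and Sirpa in control. Per kilobase of annotated exon, Cd24a stood at 168.0 CPM ± 3.19 in ETV4 KO and 187.0 CPM ± 2.65 in control, and Cd47 at 39.8 CPM ± 1.67 in ETV4 KO and 40.4 CPM ± 0.722 in control (SD, n = 3 each). Sirpa stood at 5.66 CPM ± 0.194 per kilobase in ETV4 KO and 0.532 CPM ± 0.0424 in control, and Qpctl at 1.91 CPM ± 0.11 per kilobase in ETV4 KO and 1.53 CPM ± 0.213 in control (SD, n = 3 each). Neighbours in both orders lay apart by more than their SDs. Cd47 transcript per kilobase was thus 7.03 ± 0.432 times that of Sirpa in ETV4 KO and 76.2 ± 4.78 times in control (SD, n = 3 each). The lengths are the union of all annotated exons, 4911 bases for Sirpa, 6276 for Cd47, 2580 for Cd24a and 4310 for Qpctl, and isoforms that leave exons out would shift these levels in both groups.

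**Figure D2:**
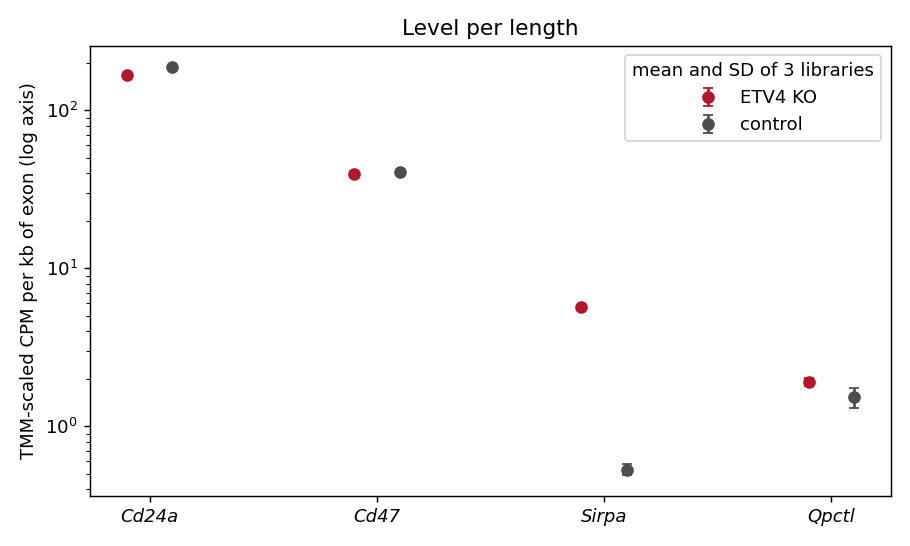
Mean TMM-scaled CPM per kilobase of annotated exon, on a log axis, for the 4 genes in ETV4 KO (red) and control (grey), with SD over 3 libraries where it exceeds the symbol. Sirpa stands above Qpctl in ETV4 KO, at 5.66 and 1.91, and below it in control, at 0.532 and 1.53.

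Reads of near-identical genes could be counted for one another, so the annotated transcripts of each gene were cut into all stretches of 50 bases and searched for in the transcripts of all other genes. For Sirpa 0 of 5223 stretches occurred in another gene on either strand. Its paralogs Sirpb1a, Sirpb1b, Sirpb1c, Gm9733 and Gm5150, which lie together on chromosome 3, and Tyrobp, the adaptor that activating SIRP receptors use, had 0 counts in all 6 libraries, which allows up to 0.0388 CPM in ETV4 KO and 0.0411 CPM in control (3 counts over the group, counting error only). For Cd47 0.615% of 6507 stretches recurred on the same strand. For Cd24a 69 of 2510 stretches, 2.75%, recurred, all in 1 annotated gene, Gm6212. Qpctl overlaps Fbxo46 on the opposite strand by 471 bases of exon, 9.80% of its stretches. Without a stated strand setting, reads there cannot be told apart, which leaves Qpctl uncertain; Fbxo46 had 10.9 CPM ± 0.770 in ETV4 KO and 10.9 CPM ± 0.384 in control (SD, n = 3 each).

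The genes next to Sirpa on chromosome 2 moved far less. Since Sirpa was chosen for its large rise, nothing is read from its place above them. Ckap2l, Il1a and Il1b lie before it and Stk35, Snrpb and Nop56 after it, between 168.3 and 642.2 kb away, and their log2 fold changes were 0.62, 0.40, -1.62, 0.32, 0.10 and 0.10. Il1b encodes interleukin-1 beta and had 5 to 8 counts per library in ETV4 KO and 13 to 26 in control. The differences of Snrpb and Nop56 lost their call under other scalings, and that of Snrpb in 6 alternatives. Among the 91 other tested genes within 5 Mb the median log2 fold change was 0.25 and 0 reached that of Sirpa. The nearest was Ebf4 at 3.02, from 114 counts over the ETV4 KO libraries and 13 over the control libraries, chosen for mention after its value was seen. With that local median taken off, Sirpa stood at 3.16.

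The other 3 genes were set against their own surroundings in the same way. Around Cd47 13 other tested genes had a median of -0.45 (5th to 95th percentile -0.84 to 0.33), and with this taken off Cd47 stood at 0.43. Around Cd24a the median of 36 genes was -0.094, which left -0.060, and around Qpctl the median of 72 genes was 0.027, which left 0.28. The part of shifts shared by neighbouring genes in the values of the 4 genes was not tested.

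**Figure D3:**
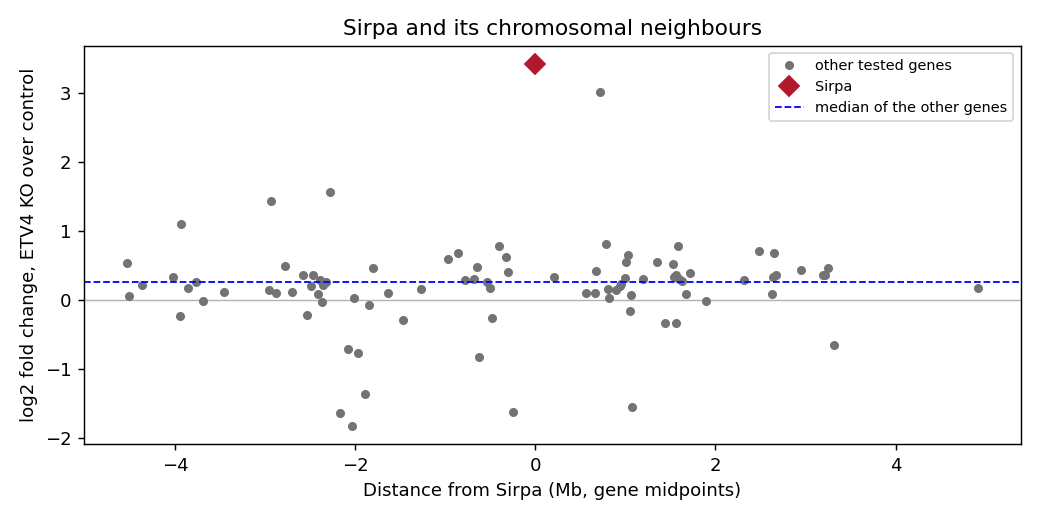
Log2 fold change, ETV4 KO over control, of Sirpa (red diamond) and of the 91 other tested genes within 5 Mb of it (grey points), against the distance between gene midpoints in Mb. The dashed line is the median of the other genes, 0.25, and Sirpa, chosen for its rise, lies above all of them at 3.42.

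Sirpa is a myeloid and neuronal gene elsewhere in the body, so the markers of those cells were examined beside it. Of 15 macrophage and monocyte markers 7 had 0 counts in all 6 libraries, among them Adgre1 (F4/80), Lyz2 (lysozyme) and the complement genes C1qa, C1qb and C1qc. Without TMM factors the list summed to 18.9 to 20.4 CPM in ETV4 KO and 17.8 to 19.1 CPM in control, nearly all of it from Cd68 and Cd14. The pan-leukocyte gene Ptprc had 5, 5 and 6 counts in ETV4 KO and 1, 4 and 3 counts in control. Of 3 tested markers 2 rose, Cd14 and Mrc1, and Cd68 was not called, where 35.0% of all tested genes rose. Cd14 had a log2 fold change of 0.28 (SE 0.095), near the median absolute size of 0.29 over all tested genes. Mrc1 had 58 counts over the ETV4 KO libraries and 17 over the control libraries. Csf1r, the receptor gene that defines much of the macrophage lineage, was too low to be tested and lay the other way, with 4, 1 and 0 counts in ETV4 KO and 7, 21 and 11 counts in control. Fcer1g had 3 counts over the ETV4 KO libraries and 7 over the control libraries, and Fcgr1 had 3 over the ETV4 KO libraries and 5 over the control libraries. The 6 dendritic cell markers summed to 3.72 to 4.35 CPM in ETV4 KO and 1.80 to 2.46 CPM in control, mainly from the transcription factor gene Zbtb46, with Clec9a at 0. The part of these cells in the level of Sirpa was not tested. The 7 neuronal markers summed to 34.0 to 35.1 CPM in ETV4 KO and 37.4 to 43.6 CPM in control, nearly all of it Map2, with Snap25, Rbfox3, Syt1 and Nefl at 0. Of the 7 fibroblast markers Lum and Thy1 were at 0, and the list summed to 12.7 to 14.4 CPM in ETV4 KO and 10.1 to 11.9 CPM in control, mostly from Pdgfra. The endothelial and lymphocyte lists stayed under 1 CPM in every library.

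The genes most like Sirpa over the 6 libraries were sought among all tested genes with a function name, by the Euclidean distance between profiles of log2(CPM + 0.5) that were centred on their own means. They were Dab2 (distance 0.18), Anxa8 (0.21), Klk10 (0.23), Cntfr (0.24), Fgfbp1 (0.26) and Col5a1 (0.39). Dab2 encodes an endocytic adaptor, Anxa8 an annexin, Klk10 a kallikrein, Cntfr a cytokine receptor subunit, Fgfbp1 an FGF carrier and Col5a1 a fibrillar collagen. Dab2 had 78.9 CPM ± 2.69 in ETV4 KO and 7.92 CPM ± 0.494 in control (SD, n = 3 each). Cntfr had only 7 counts over the control libraries, so that the pseudocount of 0.5 shrinks its profile toward that of Sirpa. With 6 libraries in 2 groups, likeness mostly reflects the size of the difference between the groups.

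Genes that act with the 4 proteins were taken from 9 lists. Together they held 119 genes, of which 91 were tested; 39 rose and 35 fell in ETV4 KO (edgeR quasi-likelihood test, adjusted p under 0.05), 42.9% and 38.5%, where 35.0% of all tested genes rose and 36.0% fell, 71.1% together. The median log2 fold change was -0.00028, against -0.0038 over all tested genes. By at least 2-fold 4 of the 91 rose and 5 fell, where 467 of all 12076 tested genes rose and 727 fell. Tested against a fold change of 1.5 (glmTreat), 9 rose and 7 fell, where 735 of all 12076 tested genes rose and 949 fell.

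Genes that carry the signal of SIRPA inside the cell, or shed SIRPA from it, went both ways. Of 10 tested genes 5 rose and 3 fell, where 35.0% of all tested genes rose and 36.0% fell. The median log2 fold change of the list was 0.18. Ptpn6, which encodes SHP-1, a phosphatase docked at the tyrosines shown above, had 32.5 CPM ± 2.26 in ETV4 KO and 18.2 CPM ± 1.09 in control (SD, n = 3 each), or 0.84 as a log2 fold change (SE 0.063, edgeR adjusted p = 7.29e-13). The 3 ETV4 KO libraries had 726 to 923 counts of it and the 3 control libraries 410 to 473. Ptpn11, which encodes SHP-2, rose by 0.30 (SE 0.031, edgeR adjusted p = 6.50e-10) on a level of 390.0 CPM ± 5.73 in ETV4 KO and 316.1 CPM ± 5.33 in control (SD, n = 3 each). Adam17, a sheddase of many surface proteins, rose by 0.35 (SE 0.039, edgeR adjusted p = 4.35e-09). Jak2, a tyrosine kinase of cytokine receptors, fell to 81.7 CPM ± 2.89 in ETV4 KO, against 180.6 CPM ± 5.66 in control (SD, n = 3 each), or -1.14 as a log2 fold change (SE 0.038, edgeR adjusted p = 1.77e-21). The kinases Src and Lyn were not called, at -0.049 (SE 0.032, edgeR adjusted p = 0.173) and 0.074 (SE 0.042, edgeR adjusted p = 0.112). Src was called lower under upper-quartile scaling and under library size alone, and Lyn was called higher without ETV4 KO replicate 2. Fyb, an adaptor of haematopoietic cells, had 24 counts over the ETV4 KO libraries and 27 over the control libraries and was not tested.

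Among ligands and membrane partners of CD47, Cav1 had the largest change. Of 10 tested genes 5 rose and 5 fell, where 35.0% of all tested genes rose and 36.0% fell. Cav1, the caveolin that forms the core of caveolae, had 8, 5 and 8 counts in ETV4 KO and 701, 832 and 687 counts in control. This was 0.272 CPM ± 0.0666 in ETV4 KO and 30.4 CPM ± 0.290 in control (SD, n = 3 each), or -6.78 as a log2 fold change (SE 0.14, edgeR adjusted p = 5.14e-27). The integrin subunits Itgav and Itgb1 rose by 0.46 (SE 0.035, edgeR adjusted p = 6.29e-13) and 0.28 (SE 0.029, edgeR adjusted p = 9.42e-10). Bnip3, a mitochondrial protein reported to interact with CD47, rose by 0.68 (SE 0.064, edgeR adjusted p = 9.17e-11). Outside the rule for named genes, and chosen after their values were seen, are Thbs1, Thbs3 and Itgb3. Thbs1, whose product thrombospondin 1 is the soluble ligand of CD47, fell to 304.0 CPM ± 7.72 in ETV4 KO, against 416.1 CPM ± 14.4 in control (SD, n = 3 each). Thbs3, which encodes another thrombospondin, had 46, 49 and 39 counts in ETV4 KO and 22, 12 and 10 counts in control, or 1.52 as a log2 fold change (SE 0.27, edgeR adjusted p = 1.42e-05). Itgb3, the integrin chain that pairs with Itgav beside CD47, fell to 15 to 25 counts per library in ETV4 KO, against 79 to 121 in control, or -2.34 as a log2 fold change (SE 0.20, edgeR adjusted p = 1.69e-11). Kdr, Thbs2 and Itga4 had at most 1 count in any library.

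Among receptors of CD24 and the enzymes that put sialic acid on glycans, the gene of P-selectin stood out. Of 13 tested genes 7 rose and 4 fell, where 35.0% of all tested genes rose and 36.0% fell. The median log2 fold change of the list was 0.18. Selp, which encodes P-selectin, a receptor for CD24 best known on platelets and endothelium, had 497, 419 and 448 counts in ETV4 KO and 59, 42 and 41 counts in control. The means were 17.7 CPM ± 0.947 in ETV4 KO and 1.97 CPM ± 0.516 in control (SD, n = 3 each), or 3.18 as a log2 fold change (SE 0.12, edgeR adjusted p = 3.98e-20). Over 6 endothelial markers the summed level, without TMM factors, was 0.119 to 0.310 CPM in ETV4 KO and 0.224 to 0.616 CPM in control. The sialyltransferases went both ways. St3gal1 and St3gal4 rose by 0.91 (SE 0.039, edgeR adjusted p = 1.17e-18) and 0.30 (SE 0.033, edgeR adjusted p = 1.96e-09). Outside the rule for named genes, and chosen after their values were seen, are St3gal2, St3gal3 and St6gal1. St3gal2 rose by 0.18 (edgeR adjusted p = 0.00017). St3gal3 fell, at -0.70 (edgeR adjusted p = 3.61e-07), and St6gal1 was called lower, at -0.099 (edgeR adjusted p = 0.047). Cmas, which activates sialic acid for transfer, fell, at -0.36 in log2 fold change (SE 0.045, edgeR adjusted p = 2.96e-08). The sialic acid transporter gene Slc35a1 was at -0.0029 (edgeR adjusted p = 0.970) and St3gal6 at -0.13 (edgeR adjusted p = 0.184), neither called, although St3gal6 was called lower without ETV4 KO replicate 1. Siglecg, which encodes the receptor that reads CD24 in mice, was too low to be tested, and its values were seen before it was chosen for mention. It had 7, 9 and 8 counts in ETV4 KO and 1, 0 and 1 counts in control, a ratio of 11.3 with a 95% Clopper-Pearson interval of 2.81 to 99.0 that covers counting error only.

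Genes that assemble the GPI anchor of CD24 went both ways. Of 25 tested genes 7 rose and 10 fell, where 35.0% of all tested genes rose and 36.0% fell, and 8 were not called. The median log2 fold change was -0.085. With DESeq2, and at an adjusted p under 0.01, 7 rose and 8 fell. Pigs, a subunit of the transamidase that attaches the anchor, had -0.68 (SE 0.045, edgeR adjusted p = 3.49e-14). Pigp, a subunit of the first enzyme of the pathway, fell to 4.80 CPM ± 0.222 in ETV4 KO, against 10.4 CPM ± 0.310 in control (SD, n = 3 each), or -1.12 as a log2 fold change. Pigx, which helps add the first mannose, had -0.58, and Pigq, another subunit of the first enzyme, rose by 0.49. Pigs lies on chromosome 11 with Etv4, and Pigp and Pigx on chromosome 16 with Cd47, whose tested genes had a median log2 fold change of -0.26.

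QPCTL has a secreted paralog, QPCT, and its known substrates include the chemokines CCL2 and CX3CL1 besides CD47. Qpct had 2 counts over the ETV4 KO libraries and 6 over the control libraries, and Ccl2 had 2 counts over the ETV4 KO libraries and 6 over the control libraries, so neither was tested. Ccl7 and Ccl8 had 0 counts. Cx3cl1, the membrane chemokine fractalkine, was the only gene of this list that was tested. It fell to 66.1 CPM ± 2.32 in ETV4 KO, against 85.1 CPM ± 2.34 in control (SD, n = 3 each), or -0.36 as a log2 fold change (SE 0.041, edgeR adjusted p = 4.08e-09).

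Among other genes whose products hold back immune attack, 3 of 7 tested genes changed by at least 2-fold. Of the 7, 2 rose and 4 fell, where 35.0% of all tested genes rose and 36.0% fell. Stc1 encodes stanniocalcin 1, which is reported to retain calreticulin inside the cell, and had 317, 314 and 256 counts in ETV4 KO and 30, 32 and 25 counts in control, or 3.26 as a log2 fold change (SE 0.14, edgeR adjusted p = 1.02e-18). Cd274, which encodes the checkpoint ligand PD-L1, had 13, 16 and 18 counts in ETV4 KO and 114, 88 and 92 counts in control, or -2.72 as a log2 fold change (SE 0.23, edgeR adjusted p = 8.22e-12). The MHC class I chains H2-K1 and H2-D1, whose reads can be split between near-identical copies, had -0.24 and -0.18, and their light chain B2m was at 0.0080 (SE 0.034, edgeR adjusted p = 0.841), a value whose sign turned under 4 alternatives. Cd200 and Pdcd1lg2 had 0 counts in all libraries.

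Genes that invite engulfment or expose phosphatidylserine rose in 8 and fell in 5 of 16 tested cases, with a median log2 fold change of 0.17. Over all tested genes 35.0% rose and 36.0% fell. Calr, which encodes calreticulin, the signal that CD47 offsets, had 1384 CPM ± 10.6 in ETV4 KO and 810.5 CPM ± 12 in control (SD, n = 3 each), or 0.77 as a log2 fold change (SE 0.030, edgeR adjusted p = 6.80e-20). Lrp1, the receptor that reads calreticulin on phagocytes, rose by 0.71 (SE 0.038, edgeR adjusted p = 2.81e-16), and Axl, a receptor for bridged phosphatidylserine, by 0.59 (SE 0.031, edgeR adjusted p = 1.15e-16). The scramblase family gene Plscr1, which is also induced by interferon, had -0.62 (SE 0.043, edgeR adjusted p = 1.21e-13). Slamf7 and Xkr4 had 0 counts in all 6 libraries.

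**Figure D4:**
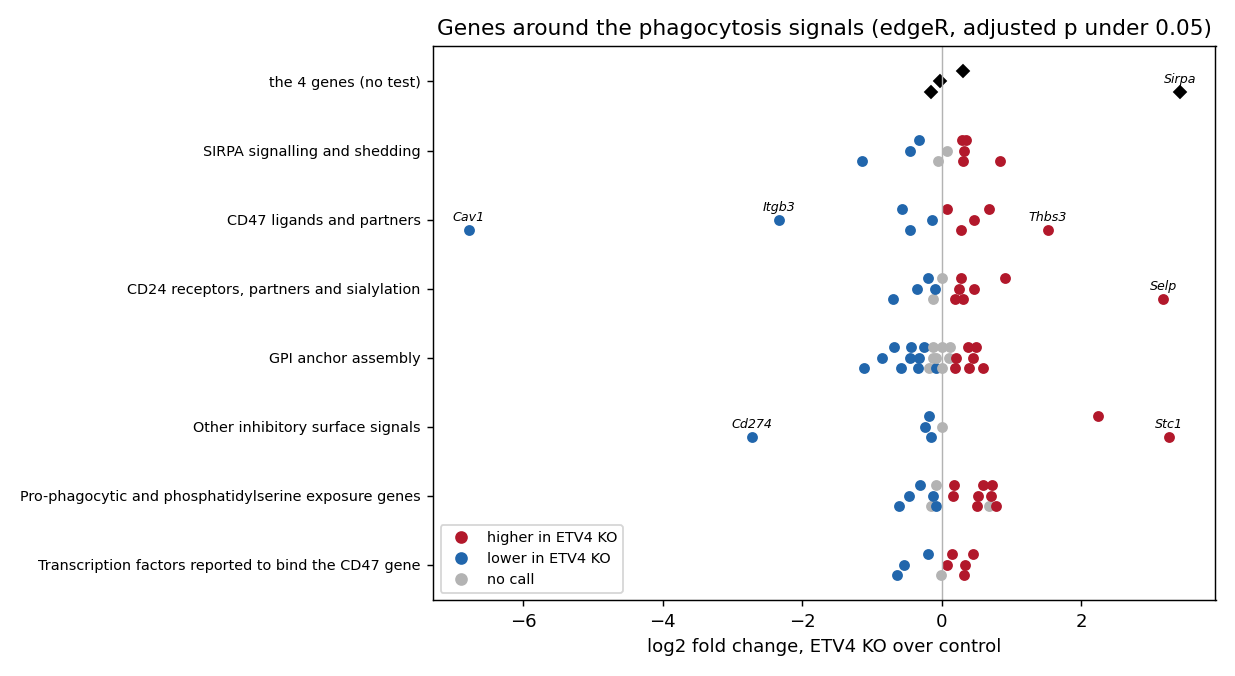
Log2 fold change, ETV4 KO over control, of Sirpa, Cd47, Cd24a and Qpctl (black diamonds) and of the tested genes of 7 lists around them (circles), red where called higher, blue where called lower and grey where not called (edgeR, adjusted p under 0.05). Names mark most genes beyond 1.4 on either side, among them Selp at 3.18, Stc1 at 3.26 and Cav1 at -6.78.

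The tested genes of transcription factors reported to bind the CD47 gene changed by less than 2-fold, as most tested genes did. A change of at least 2-fold was reached by 1194 of all 12076 tested genes. Of the 9 transcription factor genes 5 rose and 3 fell, where 35.0% of all tested genes rose and 36.0% fell. With library size alone 3 of the 9 rose. Myc rose by 0.45 (SE 0.034, edgeR adjusted p = 6.92e-13), Hif1a, the hypoxia factor, by 0.33 (SE 0.040, edgeR adjusted p = 1.97e-08) and Snai1 by 0.32 (SE 0.073, edgeR adjusted p = 0.00027). Stat3 had -0.54 (SE 0.042, edgeR adjusted p = 1.79e-12), and Nfkb1 was not called, at -0.0052 (edgeR adjusted p = 0.894). Gabpa, an ETS factor named after its value was seen, fell, with -0.19. Zeb1, a repressor of epithelial genes, was too low to be tested, with 1, 0 and 1 counts in ETV4 KO and 3, 3 and 5 counts in control.

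Because ETV4 is an ETS factor, RefSeq promoters (GRCm38.p6, 250 bases before to 50 after a start) were searched on both strands for the ETS core CCGGAA and for AGGAAG, the element for which the PEA3 subfamily is named. Of the 4 genes Cd47 was matched in the promoter table, with 2 start sites 7 bases apart. Its window at chr16:49855404-49855703 on the plus strand holds CCGGAA 1 time, given in capitals, and AGGAAG 0 times. CCGGAA occurs in 14.9% and AGGAAG in 35.4% of the 32851 windows of this length. A match is a description of the letters only.
Cd47 promoter: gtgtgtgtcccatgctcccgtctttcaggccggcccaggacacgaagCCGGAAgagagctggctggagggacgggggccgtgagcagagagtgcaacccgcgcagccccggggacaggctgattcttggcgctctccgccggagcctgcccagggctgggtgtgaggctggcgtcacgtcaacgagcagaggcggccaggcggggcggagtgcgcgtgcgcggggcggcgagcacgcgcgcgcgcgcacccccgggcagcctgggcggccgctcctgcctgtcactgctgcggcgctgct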

How the data were processed

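The deposited table holds read counts by gene symbol, in whole numbers without normalization, and library names in the labels tie its columns to the samples. Tools in the submitters' processing notes are featureCounts, STAR 2.7.9a, FastQC 0.11.9 and R 4.1.1, and the builds are mm10 and hg38; which step used which is not stated there. For the annotation, the strand setting and multi-mapping reads the sources used here give nothing. Per the labels' protocols the libraries came from a stranded poly(A) kit.

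Counts were analysed with edgeR 4.0.16 in R 4.3.3: filterByExpr by group (minimum count 10, minimum total 15), TMM, then a quasi-likelihood fit and F-test on group (glmQLFit, glmQLFTest), and Benjamini-Hochberg adjustment over 12076 genes, called at an adjusted p under 0.05. Each SE was obtained as the absolute log2 fold change over the root of its F statistic. The alternatives were RLE and upper-quartile factors, library size alone, no filter, a filter of 1 CPM in 3 samples, DESeq2 1.42.0, limma-voom (limma 3.58.1), a replicate block, each sample left out, an adjusted p under 0.01, glmTreat against 1.5-fold, and the median of other genes within 5 Mb taken off. The steps were tested on simulated data. Positions and exon lengths came from GENCODE M21 (GRCm38, equal to mm10), matched by symbol, with 1 position for 30416 of 31017 symbols.

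Of the 119 list symbols 117 were matched. The members and lists were chosen with earlier results of these data known. Named genes are the 4 members, every SIRP paralog, and from each list the called genes of smallest adjusted p, up to 3 in the commoner direction plus 1 opposite, and the uncalled genes where fewer than 3. A gene that this rule names among other inhibitory signals is not reported here. For likeness to Sirpa the 6 nearest profiles and for position the 3 nearest tested genes on each side are named. The labels do not say whether replicate numbers pair the samples, and the main fit did not pair them. Every pair of libraries of a group differed by more than sampling noise.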

Additional observations from a re-analysis of the deposited data

How the results depend on the processing

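Over 14 alternatives in scaling, filter, tool and samples the log2 fold change lay between 3.35 and 3.47 for Sirpa, -0.074 and 0.0094 for Cd47, -0.21 and -0.14 for Cd24a and 0.21 and 0.41 for Qpctl. Cd24a moved beyond its spread with upper-quartile factors (-0.19) and library size alone (-0.21). With the local genome median taken off, the values were 3.16 for Sirpa, 0.43 for Cd47 and -0.060 for Cd24a; the cause was not tested. Tested against a 1.5-fold change, 735 genes rose and 949 fell over the table, and 9 and 7 in the lists together. Genes not called changed sign around 0. Slc35a1 had 0.0059 without a filter, 0.0015 with DESeq2 and -0.058 to 0.045 with single samples left out. B2m had -0.029 with upper-quartile factors, -0.043 with library size alone and -0.017 to 0.031 with single samples left out. Nfkb1 had 0.0037 without a filter and -0.024 to 0.010 with single samples left out. Fbxo46, also not called, had -0.025 with upper-quartile factors, -0.038 with library size alone and as low as -0.030 with single samples left out. The 6 genes most like Sirpa kept their direction and call in the alternatives in scaling, filter, tool and samples. Nothing is read from that, since they were chosen for likeness to a gene picked for its large rise. Cx3cl1 lost its call against 1.5-fold. With the replicate number as a block, 4378 genes rose and 4504 fell, and 39 and 36 in the lists. The labels do not say whether the numbers pair the samples. Deviations of same-numbered libraries correlated at 0.071, 0.071 and 0.019, and each ETV4 KO library except replicate 3 correlated best with its own number. Correlations this small do not settle it. Depth limits genes near the filter, such as Siglecg.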
